A study of Homo sapiens with 16 samples.

Results

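Desmosomal and fascia adherens genes were examined in cardiomyocytes in which the long noncoding RNA LINC00881 was raised or lowered. The 10 genes PKP2, DSP, JUP, DSG2, DSC2, CDH2, CTNNA1, CTNNA3, CTNNB1 and TJP1 were taken by symbol from a table of 59385 gene symbols, and all 10 passed the filter on low counts in both experiments. RNA-Seq was available for 16 libraries of beating hiPSC-CMs, cardiomyocytes differentiated from the healthy-donor iPS cell line WTC-11, between day 15 and day 35 of culture, with 4 libraries in each of 4 groups. In the overexpression experiment, cells were transfected with a plasmid carrying full-length LINC00881 in a vector with a CMV promoter, or with a control plasmid for bacterial alkaline phosphatase. In the knockdown experiment they received an LNA GapmeR against LINC00881, an antisense oligonucleotide that recruits RNase H to its target, or a scrambled oligonucleotide. All libraries thus came from 1 iPS cell line, and every control was itself transfected.

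Cardiomyocytes are joined end to end at the intercalated disc. There, desmosomes tie the desmin filaments of neighboring cells together and the fascia adherens ties their actin filaments together, and in the heart the 2 junctions are merged into a mixed area composita. The desmosomal cadherins DSG2 and DSC2 bind across the gap between cells, JUP (plakoglobin) and PKP2 (plakophilin 2) bind the cadherin tails, and DSP (desmoplakin) links them to desmin. CDH2 (N-cadherin) is the classical cadherin of the fascia adherens, CTNNB1 (beta-catenin) binds its tail, and the alpha-catenins CTNNA1 and CTNNA3 link the complex to actin. CTNNA3, or alpha-T-catenin, is largely restricted to heart and testis and binds PKP2, while TJP1 (ZO-1) is a scaffold at the edge of gap junction plaques. Variants in the desmosomal genes and, more rarely, in CDH2 and CTNNA3 cause arrhythmogenic cardiomyopathy.

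The members differed widely in gene architecture. CTNNA3 is the longest, with 1783652 bp on chromosome 10 of GRCh38 (65912518 to 67696169, minus strand) for 11136 bp of exons. Its ubiquitous paralog CTNNA1 spans 324068 bp on chromosome 5 (138610967 to 138935034, plus strand). The 3 cadherin genes lie on chromosome 18: CDH2 from 27950966 to 28177446 on the minus strand, DSC2 from 31058840 to 31102522 on the minus strand, and DSG2 from 31498043 to 31549008 on the plus strand. DSC2 and DSG2 have their 5′ ends 396 kb apart, and the 4 desmosomal cadherin genes between them, DSC1, DSG1, DSG4 and DSG3, never exceeded 12 counts in any library. PKP2 spans 106096 bp on chromosome 12 and DSP 45143 bp on chromosome 6, so the members cover a 55.2-fold range of span from JUP (32328 bp on chromosome 17) to CTNNA3.

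The promoters of the alpha-catenin paralogs and of the desmosomal cadherins, 2 of the 4 gene pairs whose count ratios are compared further on, are shown so that each pair can be read side by side. They are the RefSeq windows of 300 bases (250 before and 50 after the most upstream listed start, GRCh38.p14), a table that held 9 of the 10 members and not PKP2. Capitals mark GATA-type motifs (AGATAA and AGATAG as well as the variants TGATAA and also TGATAG, on either strand) and the GC box (GGGCGG, either strand), and overlapping matches run together. CTNNA3 is at chr10:67696146-67696445 on the minus strand, CTNNA1 at chr5:138753175-138753474 on the plus strand, DSG2 at chr18:31497927-31498226 on the plus strand and DSC2 at chr18:31102372-31102671 on the minus strand.
CTNNA3: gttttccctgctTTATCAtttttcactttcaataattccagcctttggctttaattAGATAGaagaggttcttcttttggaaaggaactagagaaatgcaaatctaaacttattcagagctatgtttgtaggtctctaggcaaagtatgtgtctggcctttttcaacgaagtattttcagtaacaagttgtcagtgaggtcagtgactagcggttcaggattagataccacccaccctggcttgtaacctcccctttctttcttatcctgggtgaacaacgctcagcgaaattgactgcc
CTNNA1: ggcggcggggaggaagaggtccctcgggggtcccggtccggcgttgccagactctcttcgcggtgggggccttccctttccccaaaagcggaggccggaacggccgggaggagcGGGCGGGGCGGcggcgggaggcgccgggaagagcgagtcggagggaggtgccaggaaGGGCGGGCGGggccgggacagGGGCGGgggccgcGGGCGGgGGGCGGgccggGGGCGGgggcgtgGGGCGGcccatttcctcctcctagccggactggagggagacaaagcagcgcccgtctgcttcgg
DSG2: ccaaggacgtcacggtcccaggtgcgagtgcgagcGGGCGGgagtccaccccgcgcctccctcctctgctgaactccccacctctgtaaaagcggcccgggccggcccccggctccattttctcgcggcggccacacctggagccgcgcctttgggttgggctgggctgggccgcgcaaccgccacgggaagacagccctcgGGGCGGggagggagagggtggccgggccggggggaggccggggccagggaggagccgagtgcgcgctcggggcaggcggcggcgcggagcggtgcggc
DSC2: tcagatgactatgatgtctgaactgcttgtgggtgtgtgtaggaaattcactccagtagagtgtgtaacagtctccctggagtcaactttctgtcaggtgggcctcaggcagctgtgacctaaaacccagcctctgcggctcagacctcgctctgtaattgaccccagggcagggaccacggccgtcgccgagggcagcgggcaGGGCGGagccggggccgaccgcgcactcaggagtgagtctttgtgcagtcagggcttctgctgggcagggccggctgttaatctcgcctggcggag

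The CTNNA3 window held 2 GATA-type matches, no GC box, 4 CG dinucleotides and 40.7% G+C. The CTNNA1 window held 9 GC boxes, no GATA-type match, 37 CG dinucleotides and 77.7% G+C. DSG2 had 2 GC boxes and 36 CG dinucleotides, against 1 and 15 in DSC2. Of the 9 members with a window, CTNNA3 and JUP had a GATA-type match, and CTNNA3 alone had no GC box. Among all 35116 windows of this length in the table, 25.0% held a GATA-type match and 45.0% a GC box, and the median number of CG dinucleotides was 14. A letter match does not show that a factor binds there.

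Total counts ran from 11272633 to 16415025 in LINC00881 plasmid libraries, from 9833533 to 13493729 in control plasmid libraries, from 26979162 to 37332620 in GapmeR libraries and from 29279325 to 37033017 in scrambled libraries. LINC00881 had 476, 451, 438 and 406 CPM (read counts scaled to effective library size by TMM) with its plasmid, against 87.4, 143, 98.2 and 92.1 CPM with the control plasmid. With the GapmeR it had 11.3, 26.7, 19.7 and 21.8 CPM, against 126, 149, 54.8 and 54.7 CPM with the scrambled oligonucleotide, so both treatments moved their target without overlap. All 12 cardiomyocyte markers were detected in every library, although TNNT2, cardiac troponin T, stayed between 19.7 and 167 CPM. Of the endothelial markers, PECAM1, CDH5, VWF, TIE1 and ERG stayed under 1 CPM in every library, while KDR ran from 33.3 to 237 CPM. The 11 fibroblast markers summed to between 222 and 862 CPM, with FN1 (31.7 to 515 CPM) and PDGFRA (34.4 to 169.5 CPM) present in every library and DCN at 0.46 CPM or less. The 5 pluripotency markers summed to between 4.26 and 14.5 CPM, mostly from DNMT3B and LIN28A, with NANOG, POU5F1 and SOX2 under 1 CPM. Replicates 1 and 2 of both knockdown groups stood apart from replicates 3 and 4 on the first principal component (37.4% of variance), and the sources used here do not say what a replicate number stands for. Knockdown values are therefore also given within these 2 sets.

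By group mean per kb of exons, the fascia adherens cadherin CDH2 was the most abundant member and CTNNA3 and DSC2 the least abundant. With LINC00881 plasmid, CDH2 had 226 ± 4.32 CPM per kb, against 220 ± 10.0 with the control plasmid (SD, n = 4 each). PKP2 was the next in that experiment (125 ± 2.25 and 129 ± 7.09 CPM per kb), followed by CTNNB1, DSP, CTNNA1, JUP, TJP1, DSG2, CTNNA3 and DSC2. In the control plasmid libraries the neighbors CTNNB1 and DSP overlapped in range, as did JUP and TJP1, and with LINC00881 plasmid JUP and TJP1 alone did. DSC2 was the lowest, at 7.42 ± 0.34 CPM per kb with LINC00881 plasmid and 8.11 ± 0.81 with the control plasmid, so the members spanned 30.5-fold and 27.2-fold.

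**Figure D1:**
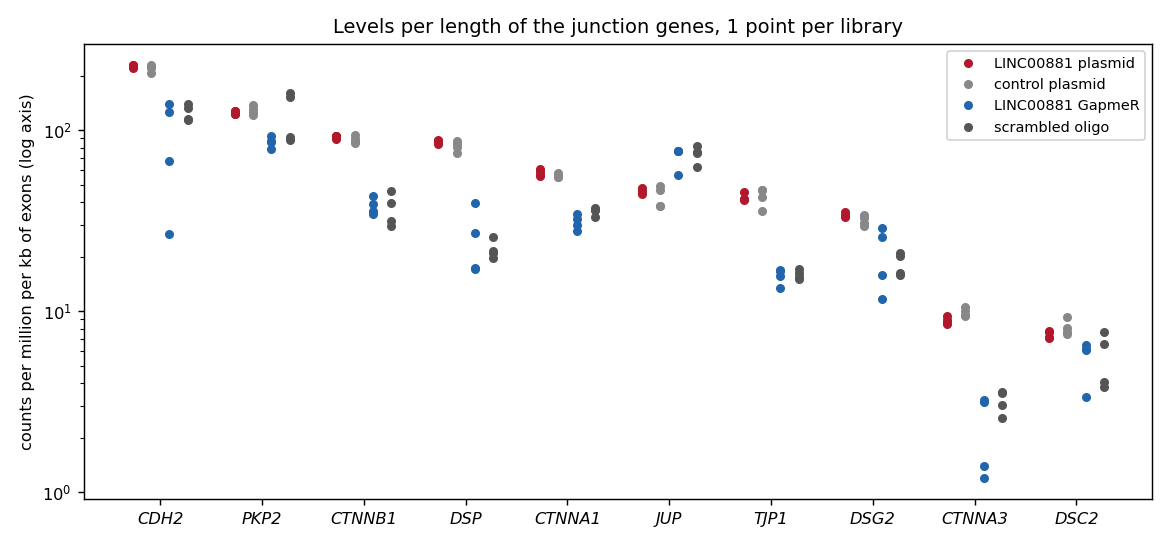
CPM per kb of exons (log axis) for the 10 genes, with 1 point per library and genes ordered by their mean in the control plasmid libraries. CDH2 and PKP2 have the highest means in all groups, although CDH2 is at 26.6 CPM per kb in GapmeR replicate 1, below JUP (76.6). JUP is higher in the knockdown libraries than in the overexpression libraries, and CTNNA3 is the lowest gene in both knockdown groups.

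The knockdown libraries gave another order. By mean, JUP ranked next after CDH2 and PKP2 there, at 71.4 ± 10.1 CPM per kb with the GapmeR and 73.8 ± 7.87 with the scrambled oligonucleotide. Its range was apart from those of its neighbors PKP2 and CTNNB1. CDH2 ran from 26.6 to 139 CPM per kb with the GapmeR, across the range of JUP. CTNNA3 was last, at 2.25 ± 1.10 and 3.18 ± 0.48 CPM per kb in GapmeR and scrambled libraries. CDH2 and PKP2 overlapped in range in both groups, as did DSP and DSG2, and DSG2 and TJP1. The experiments also differed in depth and in the mitochondrial share of counts (18.7% to 23.6% in all knockdown libraries against 5.14% to 6.64% in all overexpression libraries), and levels between experiments were not tested.

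With overexpression, the members were nearly level, and CTNNA3 alone passed the unadjusted cutoff. DSC2 (-0.13), DSG2 (0.11) and JUP (0.10) had log2 fold changes not far from it in size and did not pass. CTNNA3 had 94.1, 97.0, 98.9 and 104 CPM with LINC00881 plasmid, against 105, 106, 112 and 117 CPM with the control plasmid. All 4 LINC00881 libraries were below all 4 controls, though the nearest of them were within 1 CPM. The log2 fold change was -0.16 (SE 0.07, past the unadjusted cutoff, adjusted p = 0.361 by edgeR's quasi-likelihood test with Benjamini-Hochberg adjustment over all genes). Of the 10 members, 0 rose and 1 fell at the unadjusted cutoff of 0.05 used by the study, beside 12.1% of all 14355 genes tested in either direction and 6.23% lower. None passed after adjustment, beside 0.00697% of all genes, which was LINC00881 alone. Over all genes, 57 passed after adjustment with DESeq2 and 217 with limma-voom. Groups that did not overlap occurred in 1 of 10 members, against 7.25% of all genes in either direction.

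The CTNNA3 call was narrow. It was lost without LINC00881 plasmid replicate 1 (-0.14), 2 (-0.15) or 3 (-0.16) or control plasmid replicate 4 (-0.12), and with offsets for exonic length and GC content (-0.08). The exons of CTNNA3 have the lowest GC content of the 10 members, at 37.0%. The summed cardiomyocyte markers ran the other way, from 35029 to 37516 CPM with LINC00881 plasmid and from 30044 to 33556 CPM with the control plasmid. The fibroblast markers were also higher, from 807 to 862 CPM with LINC00881 plasmid and from 722 to 793 CPM with the control plasmid, and the mitochondrial share was lower, from 5.14% to 5.42% and from 5.46% to 6.64% of counts. The part of these measures in the result was not tested. In bulk libraries like these, fewer cells of a type and less RNA per cell cannot be told apart.

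**Figure D2:**
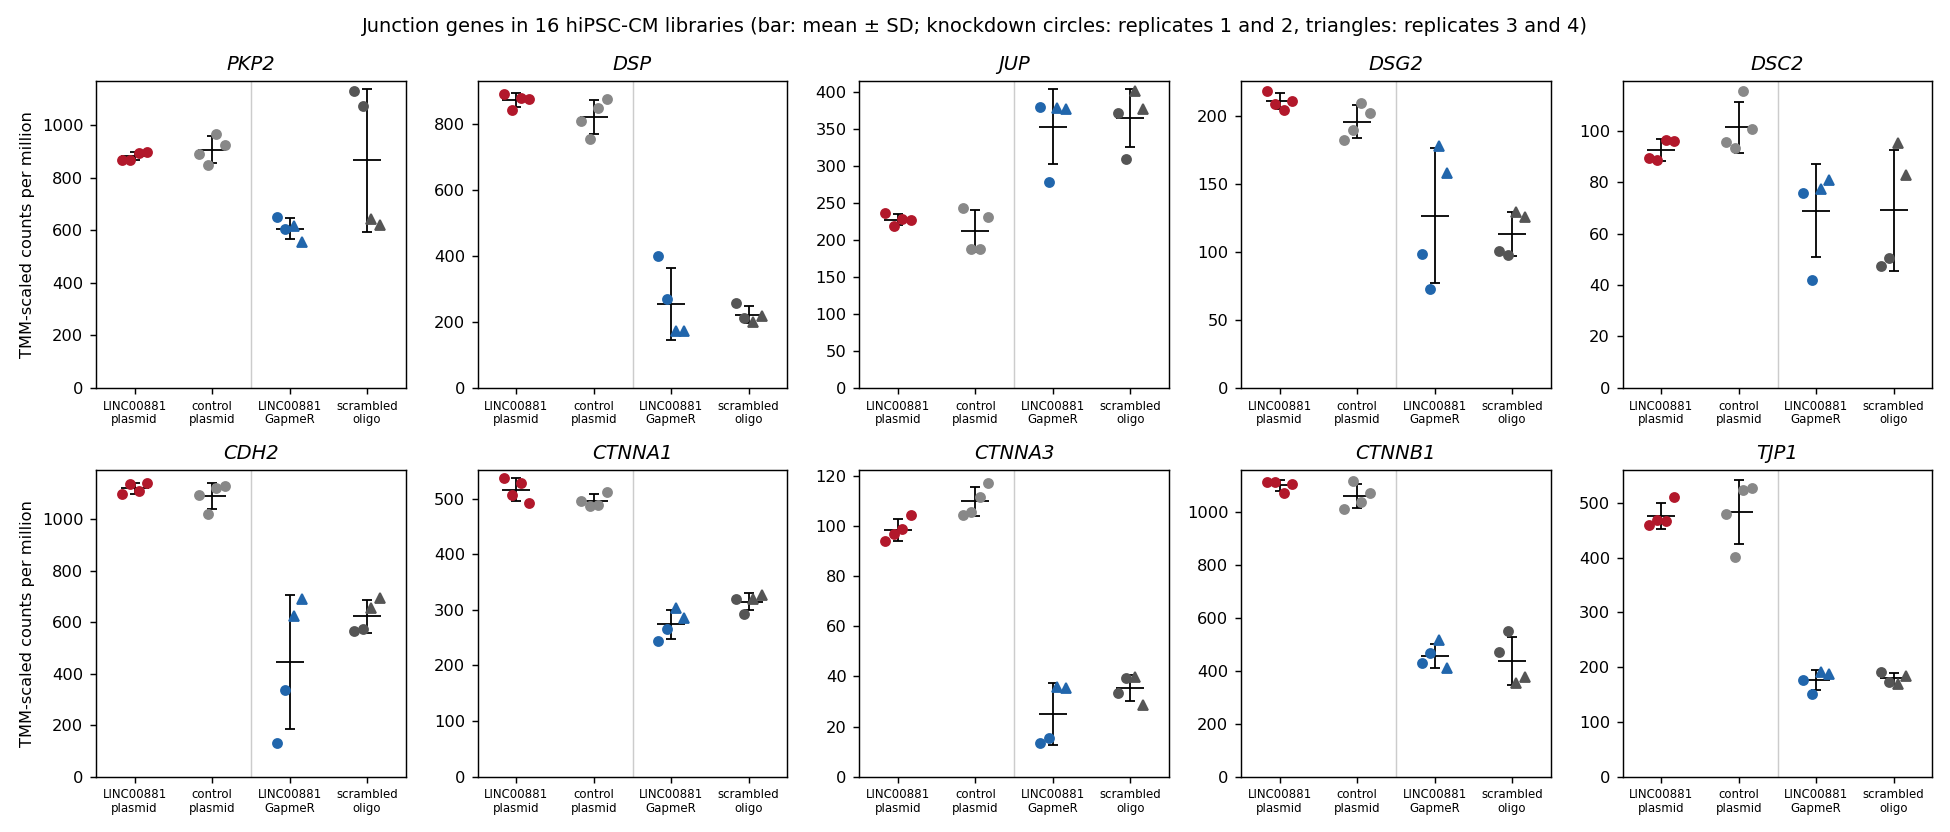
TMM-scaled CPM of each gene in each of the 16 libraries, with the mean and SD of each group as a bar (n = 4); circles and triangles in the knockdown groups are replicates 1 and 2 and replicates 3 and 4. CTNNA3 is lower with LINC00881 plasmid without overlap, while PKP2 in the scrambled libraries falls into 2 pairs that average 1101 and 632 CPM.

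The desmosomal cadherins leaned in opposite directions with overexpression. DSG2 had 218, 208, 204 and 211 CPM with LINC00881 plasmid, against 182, 189, 209 and 202 CPM with the control plasmid. DSC2 had 89.5, 88.5, 96.5 and 96.1 CPM, against 95.7, 93.1, 116 and 101 CPM. Both pairs of groups overlapped, and neither passed the cutoff (DSG2 log2 fold change 0.11, SE 0.07, adjusted p = 0.529, and DSC2 -0.13, SE 0.07, adjusted p = 0.503 by edgeR). DSG2 passed with offsets for length and GC content (0.15) and without control plasmid replicate 3 (0.14), and DSC2 passed without control plasmid replicate 1 (-0.17) or 2 (-0.17) and with an offset on length alone (-0.14).

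The plaque proteins and the remaining fascia adherens genes gave values close to their controls. PKP2 averaged 882 ± 15.9 CPM with LINC00881 plasmid and 907 ± 49.95 CPM with the control plasmid, DSP 874 ± 20.8 and 823 ± 52.5 CPM, and JUP 227 ± 7.26 and 212 ± 28.7 CPM (SD, n = 4 each). CDH2 averaged 1120 ± 21.4 and 1090 ± 49.6 CPM. Log2 fold changes of these 4 genes and of CTNNA1, CTNNB1 and TJP1 lay between -0.04 and 0.10, with SEs of 0.06 to 0.08, and their groups overlapped. The median over the 10 members was 0.05, beside 0.003 over all genes.

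**Figure D3:**
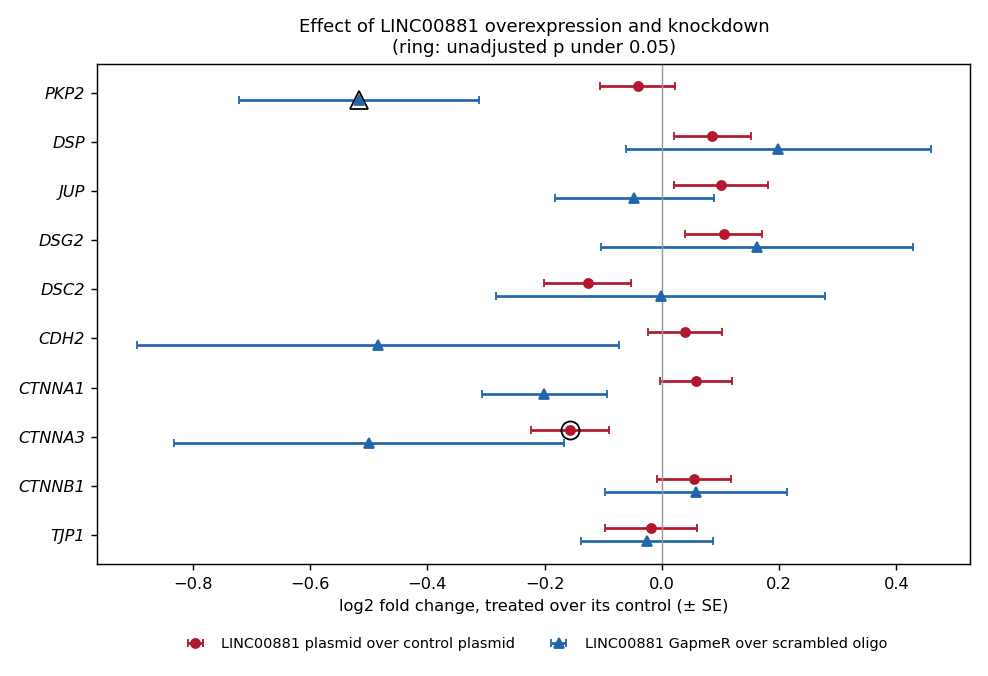
Log2 fold change (± SE from edgeR) of each gene with LINC00881 plasmid over control plasmid (circles) and with GapmeR over scrambled oligonucleotide (triangles); a ring or outline marks an unadjusted p under 0.05. CTNNA3 is ringed with overexpression (-0.16) and PKP2 with knockdown (-0.52).

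With knockdown over all 8 libraries, PKP2 alone passed the unadjusted cutoff. CTNNA3 (-0.50) and CDH2 (-0.48) had log2 fold changes of nearly its size, with larger SEs. PKP2 had 651, 604, 615 and 554 CPM with the GapmeR, against 1131, 1071, 645 and 620 CPM with the scrambled oligonucleotide. The GapmeR libraries lay together, while the scrambled libraries of replicates 1 and 2 were far above those of replicates 3 and 4, and the groups overlapped. The log2 fold change was -0.52 (SE 0.20, past the unadjusted cutoff, adjusted p = 0.541 by edgeR). Of the 10 members, 0 rose and 1 fell, beside 8.35% of all 18127 genes tested in either direction and 4.15% lower. After adjustment 0 members and 0 genes passed with edgeR, and 194 genes with DESeq2. In 0 of 10 members were the groups apart, beside 6.47% of all genes. The PKP2 call was lost without scrambled replicate 1 (-0.36) or 2 (-0.40), without GapmeR replicate 2 (-0.52), 3 (-0.53) or 4 (-0.48), and with offsets for exonic length (-0.43), length and GC content (-0.39) or gene span (-0.32).

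CDH2, CTNNA3 and DSP had wide ranges in the GapmeR libraries. CDH2 had 132, 335, 625 and 689 CPM with the GapmeR, against 566, 573, 656 and 694 CPM with the scrambled oligonucleotide. CTNNA3 had 13.3, 15.6, 36.0 and 35.2 CPM, against 33.5, 39.3, 39.9 and 28.7 CPM. DSP had 402, 271, 174 and 172 CPM, against 258, 211, 199 and 218 CPM. GapmeR replicates 1 and 2 were low in CDH2 and CTNNA3 and high in DSP. Over all 8 libraries none passed (CDH2 log2 fold change -0.48, SE 0.41; CTNNA3 -0.50, SE 0.33; DSP 0.20, SE 0.26). The other members moved less, with DSG2 at 0.16, CTNNB1 at 0.06, DSC2 at -0.002, TJP1 at -0.02, JUP at -0.05 and CTNNA1 at -0.20 (SE 0.11). CTNNA1 passed with the set as a term in the fit (-0.20) and turned to 0.30 with the offset on span. That offset also turned CTNNA3 to 0.36 and TJP1 to 0.41.

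Within the sets, the knockdown effects on the junction genes were unlike. In replicates 1 and 2, PKP2 averaged 627 CPM with the GapmeR and 1101 CPM with the scrambled oligonucleotide (log2 fold change -0.81, SE 0.10, adjusted p = 0.00558 by edgeR). CTNNA3 averaged 14.5 and 36.4 CPM (-1.33, SE 0.21, adjusted p = 0.0114), and CDH2 233 and 570 CPM (-1.29, SE 0.34, adjusted p = 0.04998). DSP was higher, at 337 and 235 CPM (0.52, SE 0.18, adjusted p = 0.11 by edgeR), and CTNNA1 lower, at 254 and 306 CPM (-0.27, SE 0.10, adjusted p = 0.135). Thus 5 of 10 members passed unadjusted, beside 27.1% of all genes, and 3 after adjustment, beside 9.64%.

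In replicates 3 and 4 the same 3 genes were near their controls. PKP2 averaged 585 CPM with the GapmeR and 633 CPM with the scrambled oligonucleotide (-0.11, SE 0.10), CTNNA3 35.6 and 34.3 CPM (0.05, SE 0.20), and CDH2 657 and 675 CPM (-0.04, SE 0.33). DSG2 (168 and 127 CPM, log2 fold change 0.40, adjusted p = 0.270 by edgeR) and CTNNB1 (463 and 364 CPM, 0.34, adjusted p = 0.275) were higher, or 2 of 10 members beside 15.2% of all genes, and 0 passed after adjustment, beside 1.38%. DSP, at 173 and 209 CPM, fell short in this fit (-0.27, SE 0.18) but passed the unadjusted cutoff when replicates 3 and 4 were fitted alone (-0.27). That separate fit called 1897 of 18127 genes after adjustment.

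**Figure D4:**
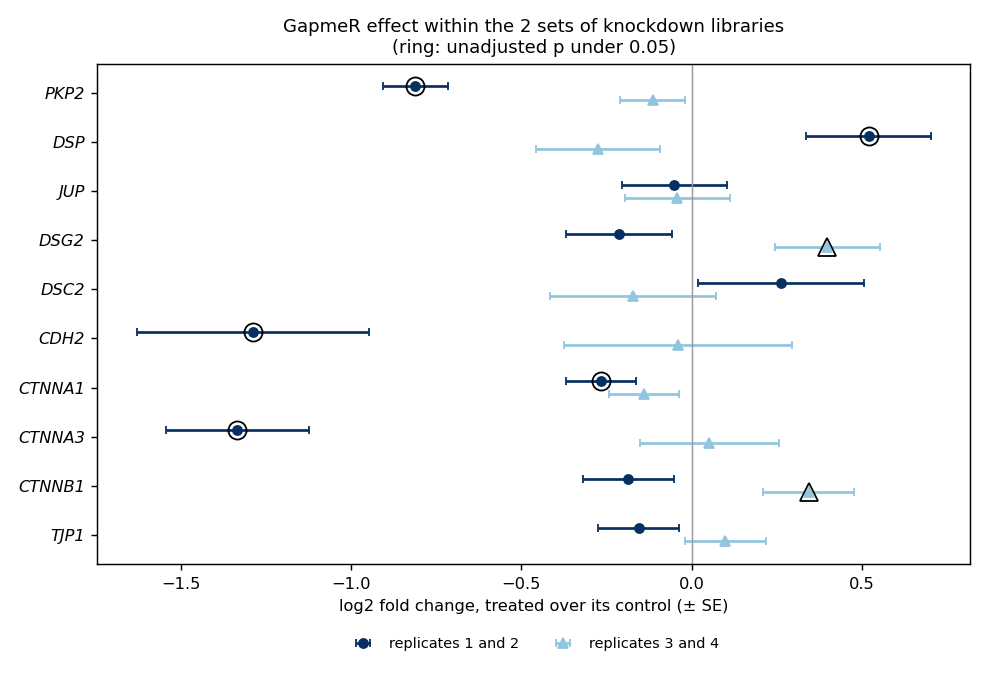
Log2 fold change (± SE from the edgeR fit with set and its interaction) of each gene with GapmeR over scrambled oligonucleotide, in replicates 1 and 2 (circles) and in replicates 3 and 4 (triangles); a ring or outline marks an unadjusted p under 0.05. PKP2, CDH2 and CTNNA3 are low in replicates 1 and 2 (-0.81, -1.29 and -1.33) and near 0 in replicates 3 and 4.

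The difference between the sets was tested directly. The sets had been seen on the first principal component of these same libraries, so genes that pass give no independent support for the split. The knockdown effect in replicates 3 and 4 exceeded that in replicates 1 and 2 by 0.70 for PKP2 (SE 0.14, adjusted p = 0.0260 by edgeR) and by 1.39 for CTNNA3 (SE 0.29, adjusted p = 0.0327). These were 2 of 10 members, beside 5.67% of all genes. Unadjusted, 6 of 10 members passed, beside 22.7%: CDH2 (1.25), DSG2 (0.61) and CTNNB1 (0.53) also leaned upward and DSP (-0.79) downward. The calls rested on few libraries, as each set held 2 per group. With 1 of the 8 libraries left out, PKP2 stayed between 0.62 and 0.77 and CTNNA3 between 1.17 and 1.65. Which members passed changed with the library left out, as did the number of all genes that passed. Each such fit left 1 library alone in its set and group. A lone library was then assumed to vary like the others.

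Across all genes, the knockdown effect moved with gene span. In replicates 1 and 2, the 236 tested genes that span over 500 kb had a median log2 fold change of -1.05, those of 200 to 500 kb -0.59, those of 50 to 200 kb -0.20 and those under 50 kb 0.13, while in replicates 3 and 4 the medians were -0.26, -0.19, -0.04 and 0.03. In replicates 1 and 2, CTNNA3 (-1.33, over 500 kb) and CDH2 (-1.29, 200 to 500 kb) were below the median of their class. CTNNA1 (-0.27) and TJP1 (-0.16), also of 200 to 500 kb, were above it, and PKP2 (-0.81, 50 to 200 kb) was below that of its class. With an offset on span, the difference between sets by edgeR came to 0.05 for CTNNA3 (adjusted p = 0.958), 0.86 for CDH2 (adjusted p = 0.374) and 0.54 for PKP2 (adjusted p = 0.0572). With that offset 0 members passed, beside 935 of 18127 genes.

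The controls and the cell markers also differed by set. Among scrambled libraries, replicates 3 and 4 against replicates 1 and 2 gave PKP2 at -0.80 (adjusted p = 0.00315 by edgeR), CTNNB1 at -0.48 (adjusted p = 0.0621), DSC2 at 0.86 (adjusted p = 0.0663) and DSG2 at 0.37 (adjusted p = 0.187). These were 4 of 10 members past the unadjusted cutoff, beside 24.7% of all genes, and PKP2 alone passed after adjustment, beside 8.8%. LINC00881 itself was at -1.32 in that contrast (adjusted p = 0.0424 by edgeR). The 12 cardiomyocyte markers summed to 22640 CPM with the GapmeR and 36593 CPM with the scrambled oligonucleotide in replicates 1 and 2 (log2 ratio -0.69), and to 25448 and 27794 CPM in replicates 3 and 4 (-0.13). At the unadjusted cutoff, 9 of these 12 markers fell in replicates 1 and 2, beside 27.1% of all genes called in either direction. In replicates 3 and 4, 4 fell, beside 15.2% of all genes, and 0 rose in either set. Relative to that sum, PKP2 in replicates 1 and 2 was at -0.12, CTNNA3 at -0.65, CDH2 at -0.62 and DSP at 1.23. All the remaining members were higher relative to it there, from 0.43 for CTNNA1 to 0.97 for DSC2. The 7 smooth muscle markers summed to 335, 283, 1292 and 1258 CPM with the GapmeR, against 509, 476, 1045 and 1009 CPM with the scrambled oligonucleotide. The 9 epithelial and endodermal markers summed to 821, 742, 383 and 369 CPM with the GapmeR, against 659, 631, 391 and 377 CPM with the scrambled oligonucleotide. The higher sum in replicates 1 and 2 was not shared by most of these markers. Of 8 tested there, 1 rose and 5 fell at the unadjusted cutoff (median log2 fold change -0.53), beside 27.1% of all genes. KRT19 reached the highest level of this list, at 716 CPM. The mitochondrial share was 23.6%, 23.1%, 18.7% and 19.0% with the GapmeR, against 22.8%, 22.7%, 18.7% and 19.8% with the scrambled oligonucleotide. The part of these measures in the junction genes was not tested.

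Ratios between related or exchangeable junction genes do not depend on library scaling, and 4 such ratios were tested in each experiment by a 2-sided exact permutation test over libraries (8 tests, smallest possible p = 0.0286). The log2 ratio of DSG2 to DSC2, the cadherins that pair across the desmosome, was 1.28, 1.24, 1.08 and 1.14 with LINC00881 plasmid, against 0.93, 1.02, 0.86 and 1.01 with the control plasmid. All 4 LINC00881 libraries were above the controls, with a mean difference of 0.23 (exact p = 0.0286, adjusted p = 0.114). The exact p was 0.0571 without control plasmid replicate 1 or 3. With knockdown the same ratio differed by 0.07 (exact p = 0.771), with -0.43 within replicates 1 and 2 but 0.57 within replicates 3 and 4.

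The log2 ratio of DSG2 to CDH2, the desmosomal to the classical cadherin, was -0.43, -2.21, -1.82 and -2.12 with the GapmeR, against -2.498, -2.56, -2.35 and -2.47 with the scrambled oligonucleotide. Each GapmeR library was above every scrambled library, in both sets, and replicate 1 stood highest. The mean difference was 0.82 (exact p = 0.0286, adjusted p = 0.114), with 1.21 in replicates 1 and 2 and 0.44 in replicates 3 and 4, and it was 0.42 without GapmeR replicate 1. That permutation exchanged libraries across the 2 sets. A sign-flip over same-numbered pairs gave exact p = 0.125, the smallest that 4 pairs allow. Leaving out scrambled replicate 1, 2, 3 or 4 gave 0.81, 0.79, 0.86 and 0.82, with exact p values of 0.0857 to 0.114. With overexpression this ratio differed by 0.07 (exact p = 0.286).

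**Figure D5:**
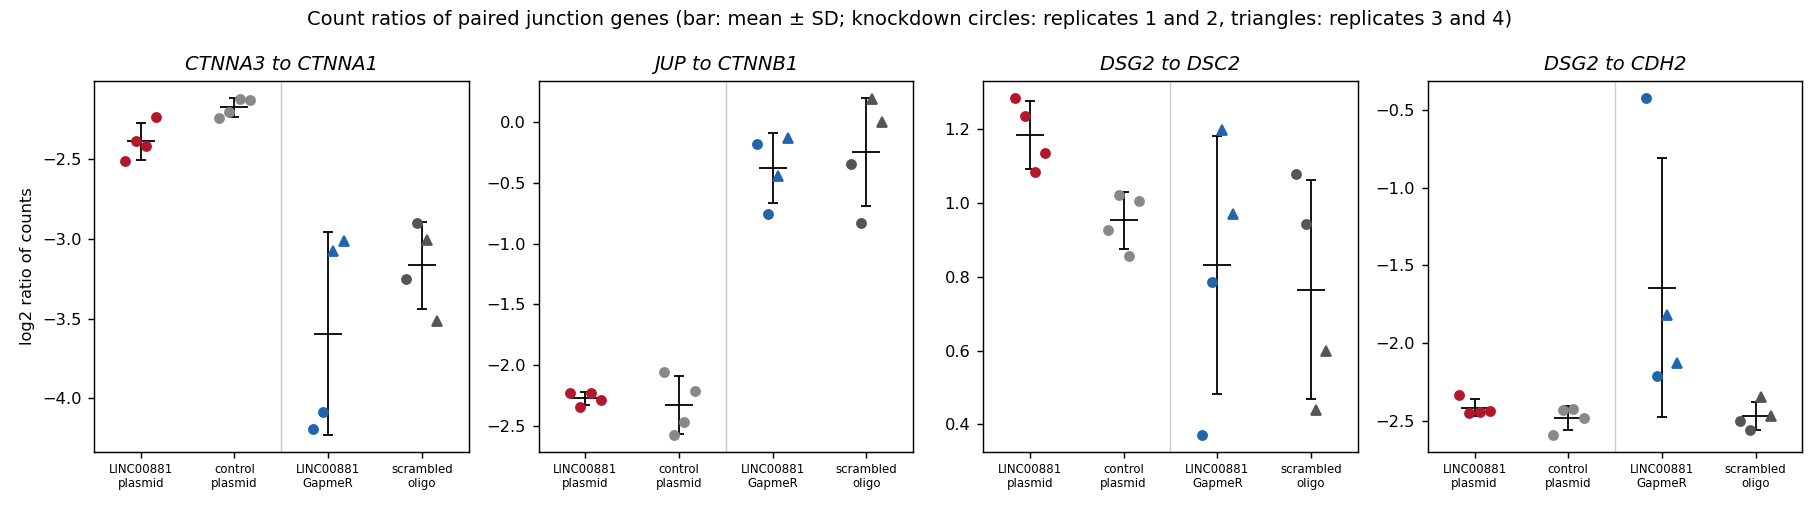
Log2 ratio of counts of 4 gene pairs in each library, with the mean and SD of each group as a bar (n = 4); circles and triangles in the knockdown groups are replicates 1 and 2 and replicates 3 and 4. The DSG2 to DSC2 ratio is higher with LINC00881 plasmid without overlap (mean difference 0.23), and the DSG2 to CDH2 ratio is higher with the GapmeR without overlap (0.82).

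The log2 ratio of CTNNA3 to CTNNA1, the cardiac to the ubiquitous alpha-catenin, was -2.52, -2.39, -2.42 and -2.24 with LINC00881 plasmid, against -2.24, -2.20, -2.13 and -2.13 with the control plasmid. The groups met at the edge, with a mean difference of -0.21 (exact p = 0.0571, adjusted p = 0.152), and without LINC00881 plasmid replicate 4 it was -0.27 (exact p = 0.0286). With knockdown it differed by -0.43 (exact p = 0.286), with -1.07 within replicates 1 and 2 but 0.21 within replicates 3 and 4. The ratio of JUP to CTNNB1, the catenins that compete for cadherin tails, differed by 0.05 with overexpression (exact p = 0.714) and by -0.13 with knockdown (exact p = 0.629).

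The members' effects in both experiments were set against each other in 1 fit of all 16 libraries. None passed after adjustment by edgeR, beside 0.0956% of 17782 genes. At the unadjusted cutoff, PKP2 (difference 0.47, adjusted p = 0.449 by edgeR) and CTNNA1 (0.25, adjusted p = 0.418) passed, or 2 of 10 members beside 11.1% of all genes, and both were higher in the overexpression than in the knockdown effect. CTNNA3 (-0.16 with overexpression and -0.50 with knockdown, the second of which turned to 0.36 with the offset on span) gave a difference of 0.34 (SE 0.34).

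Other junction genes were read from the same fits. Of 12 other desmosomal genes, 5 were tested with overexpression and 6 with knockdown, and 0 passed in either (medians -0.06 and -0.004), while PERP, a desmosomal membrane protein, reached 173 to 275 CPM. Of the other adherens and tight junction genes, 3 of 16 rose with overexpression (median 0.11), beside 12.1% of all genes called in either direction, and 1 of 15 rose and 2 fell with knockdown (median -0.16), beside 8.35%. CDH4 (R-cadherin) rose with overexpression to 5.80 ± 0.50 CPM, against 4.35 ± 1.26 with the control plasmid (log2 fold change 0.42, adjusted p = 0.355 by edgeR). Its groups overlapped, leaving out 1 library gave 0.31 to 0.64, and the call was lost in 9 of 18 alternatives. With knockdown it fell to 2.16 ± 0.77 CPM, against 6.15 ± 1.23 with the scrambled oligonucleotide (-1.51, adjusted p = 0.377 by edgeR), and it fell in replicates 1 and 2 (-2.15) as in replicates 3 and 4 (-0.996). CDH13 (T-cadherin, 0.65) also rose with overexpression, at under 5 CPM. CTNND2 (delta-catenin, -0.89) fell and ARVCF, another catenin of this family, rose (0.47) with knockdown. ARVCF lost its call in 10 of 22 alternatives, the paired replicate block among them (0.45), and CTNND2 in 14 of 22, among them the offset on span (-0.03).

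Of 20 other genes of the intercalated disc and of arrhythmogenic cardiomyopathy, 2 of 18 tested rose with overexpression (median 0.07), beside 12.1% of all genes called in either direction. Both also fell with knockdown: LDB3 (Cypher/ZASP), a Z-disc protein, at 0.17 and -0.52, and TLN2 (talin 2), which links integrins to actin, at 0.19 and -0.59. In replicates 1 and 2 the knockdown effect was -0.80 for LDB3 and -0.75 for TLN2. In replicates 3 and 4 it was -0.25 for LDB3, short of the unadjusted cutoff, and -0.45 for TLN2. With knockdown 2 of 20 rose and 3 fell (median -0.01), beside 8.35% of all genes. PDLIM3, an alpha-actinin binding protein, rose (1.13, SE 0.26), as did TMEM43, a nuclear envelope protein mutated in arrhythmogenic cardiomyopathy (0.61, SE 0.26). TMEM43 shares 12.9% of its exonic bases with another gene, was at -0.01 in replicates 3 and 4, and lost the call with the paired replicate block (0.57). With knockdown, the offset on span also lost the call of TLN2 (-0.02). With overexpression, the offsets for length and GC content lost those of TLN2 (0.08), LDB3 (0.10) and CDH4 (0.29). With edgeR's adjustment across all genes, 0 of these genes were called in either experiment.

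Likeness of pattern was described by Pearson's r of log2 CPM centered within each experiment over all 16 libraries, where the points share depth, treatment and set. Among 13247 genes, the one most like each member was REEP1 for CDH2 (r = 0.988), PDGFD for PKP2 (0.978), MBTPS1 for CTNNA3 (0.965), LYPD6 for DSG2 (0.964), TYW1 for CTNNA1 (0.957), RNF165 for DSP (0.951), TEP1 for DSC2 (0.940), RITA1 for JUP (0.930), RRM1 for CTNNB1 (0.919) and CNOT1 for TJP1 (0.879). Among the members, CDH2 and CTNNA3 were the most alike (0.877), CTNNA1 was most like CDH2 (0.821), DSG2 and DSC2 were most like each other (0.714), and DSP was most like PKP2 at only 0.151. Reads were counted without strand, and the antisense neighbors of CDH2 (2.75% of exonic bases), DSG2 (2.76%) and CTNNA1 (LRRTM2, 5.04%) could have added to their counts.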

How the data were processed

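RNA-Seq read counts per gene were available for 16 libraries of hiPSC-CMs. The authors prepared stranded total RNA libraries, aligned the reads with STAR 2.7.3a to GENCODE 38 and deposited 1 table of raw counts, whose name says that strand was not used. Groups were taken from the sample labels. All fits used edgeR 4.0.16 in R 4.3.3 (TMM scaling, filterByExpr, robust quasi-likelihood test, 2-sided) over all genes, each treated group against its own control, with the study's unadjusted cutoff of 0.05 and Benjamini-Hochberg adjustment beside it. Effects that differ between experiments or between sets of knockdown libraries were called at an adjusted p under 0.05. CPM per kb used exonic lengths of GENCODE 29 on GRCh38, which matched 40216 of 59385 symbols (67.7%), and promoter windows came from RefSeq. Ratios of counts were tested by an exact permutation test over libraries. The overexpression and knockdown fits were also run on simulated counts, and the outcome is not reported here. Those counts held no difference between sets, so they cannot show how the knockdown fit performs with one.

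The members and the gene lists were chosen with earlier results of these data known. Beyond the members, genes were named where they were among the up to 8 genes of smallest unadjusted p under 0.05 per comparison in 3 lists of other junction and disc genes (mean of at least 1 CPM), or most like a member in pattern, and some genes that this rule takes are not reported here. The labels call replicates biological, without saying whether they were separate differentiations, so p-values measure the spread between these libraries. In the knockdown experiment same-numbered libraries deviated together (r from 0.144 to 0.227 over genes), so the fit with a replicate block is treated as paired there, though other numbers of the same set gave 0.123 to 0.223 and those of the other set -0.232 to -0.104. Alternatives were DESeq2 1.42.0 and its size factors, limma 3.58.1 voom with sample weights, 2 other filters, offsets on exonic length, GC content or span (splines with 5 degrees of freedom), the replicate block, the sets, 1 fit of all libraries and leaving out each library. No replicate pair was alike enough to be 1 library.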

Additional observations from a re-analysis of the deposited data

Results flagged for a closer look

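Of 56 groups of 4 libraries checked, 4 had a library far from the rest, and chance gives about 1 in 20. JUP was lowest in GapmeR replicate 2 (277.8 CPM) and DSC2 was lowest in the same library (41.97 CPM). TJP1 was highest in LINC00881 plasmid replicate 4 (511.5 CPM). The log2 ratio of DSG2 to CDH2 was highest in LINC00881 plasmid replicate 1 (-2.329).

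The knockdown effect differed between replicates 3 and 4 and replicates 1 and 2 for CTNNA3 by 1.3852 (adjusted p = 0.0327 by edgeR) and for PKP2 by 0.6972 (adjusted p = 0.0260 by edgeR), each on the log2 scale. The sets were seen in these same libraries, and what they stand for was not tested.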

How the results depend on the processing

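Over the alternatives for single genes, 664 values kept direction and call, 95 lost the call, 19 gained it and 51 changed sign. Leaving out 1 library gave 0 to 2 members called with overexpression, 0 to 1 with knockdown, and 0 to 6 for the difference between sets. With overexpression, 0 members were called with all 16 libraries in 1 fit, beside 147 of 17782 genes. Including all genes of at least 1 count also gave 0, beside 2385 of 32465 genes, and the length offset gave 2, beside 1964 of 14355. With knockdown, 2 members were called in the fit of 16 libraries, beside 3342 of 17782 genes. Set as a term also gave 2, beside 2504 of 18127 genes. The offset on length gave 0, beside 1489 genes, and that on length and GC content 0, beside 1558. Replicates 1 and 2 alone gave 3, beside 3354 genes, and replicates 3 and 4 alone 3, beside 4646. For the difference between sets, the length and GC offset gave 1 after adjustment, beside 1202 of 18127 genes. The span offset gave 0, beside 935 genes, where CTNNA1 was -0.383 and TJP1 -0.177. Both settings were chosen after seeing the data. JUP with overexpression turned to -0.017 with the length and GC offset (-0.015 with the replicate block as well).

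With knockdown, voom turned DSP to -0.22, JUP to 0.013, DSC2 to 0.148 and TJP1 to 0.046. The length offset turned DSC2 to 0.25 and TJP1 to 0.177, the length and GC offset DSC2 to 0.224, CTNNA1 to 0.001 and TJP1 to 0.211, and the span offset DSC2 to 0.066, CTNNA1 to 0.302, CTNNA3 to 0.36 and TJP1 to 0.409. DSC2, at -0.002, also became 0.004 with DESeq2 or its size factors, 0.012 in the 16-library fit, 0.006 without a filter, 0.0 at a mean of at least 100 counts and 0.045 with set as a term. Replicates 1 and 2 alone gave DSG2 -0.208, DSC2 0.269 and CTNNB1 -0.179, and replicates 3 and 4 alone DSP -0.266, CTNNA3 0.06, TJP1 0.107 and TMEM43 -0.003.

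With the replicate block DSC2 was 0.014 with knockdown, and with the length and GC offset added DSC2 was 0.233 and TJP1 0.216. Added alone, the block lost the calls of ARVCF (0.449) and TMEM43 (0.57) with knockdown and changed no other call of a named gene. In the overexpression experiment same-numbered libraries correlated at -0.104 to 0.159, so the numbers do not pair them, and the block called 1920 genes in place of 1737. A sign-flip over pairs left the ratio differences at 0.231 (DSG2 to DSC2, overexpression) and 0.823 (DSG2 to CDH2, knockdown), with exact p = 0.125, the smallest that 4 pairs allow.

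Leaving out 1 library moved the log2 ratio difference of CTNNA3 to CTNNA1 between -0.265 and -0.173 with overexpression, of JUP to CTNNB1 between -0.027 and 0.145 with overexpression and -0.324 and 0.016 with knockdown, of DSG2 to DSC2 between 0.198 and 0.265 and -0.056 and 0.22, and of DSG2 to CDH2 with knockdown between 0.417 and 1.012. Fold changes that crossed 0 were TJP1 with overexpression (-0.1 to 0.026) and, with knockdown, DSP (-0.116 to 0.345), JUP (-0.118 to 0.052), DSG2 (-0.047 to 0.355), DSC2 (-0.143 to 0.192), CTNNB1 (-0.034 to 0.187) and TJP1 (-0.066 to 0.042), and the difference between sets for JUP (-0.193 to 0.264) and DSC2 (-0.794 to 0.068).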
